A study of Homo sapiens with 10 samples.

Results

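The inhibitors CDD-3013 and CDD-2728 were set against each other at the same dose of 1 µM, across the whole transcriptome of 12Z cells exposed to interleukin-1β (IL1β). The comparison rested on 4 of the 10 libraries, 2 with each compound. 12Z is an established, immortalised line of epithelial cells from human endometriosis lesions, in which endometrium-like tissue grows outside the uterus. The series labels both compounds as inhibitors of JNK. Every culture was starved of serum overnight and pre-treated with DMSO or an inhibitor. The 5 groups of 2 libraries were vehicle without IL1β, IL1β at 10 ng/ml for 6 h, IL1β with 1 µM CDD-2728, IL1β with 10 µM CDD-2728, and IL1β with 1 µM CDD-3013. No library had an inhibitor without IL1β, and CDD-3013 was given at 1 dose. Nothing in the labels says that the 2 libraries of a group came from separate cultures, so p-values measure only the spread between these libraries, which may be technical.

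JNK is a family of stress-activated kinases, encoded by MAPK8, MAPK9 and MAPK10 and switched on by the kinases MAP2K4 and MAP2K7. Active JNK phosphorylates c-Jun, the product of JUN, and related members of the AP-1 transcription factor family, and JUN is itself one of the genes that AP-1 drives. IL1β, a cytokine abundant in endometriosis lesions, activates JNK together with p38 and NF-κB, the factor behind most of its chemokine and adhesion genes. Transcripts of JUN and of feedback genes can therefore be read beside those of NF-κB targets in the same cells.

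A group of IL1β-responsive transcripts was lower with CDD-3013 than with CDD-2728, among them JUN, HBEGF, DUSP8 and FILIP1L, each by 23.3% to 40.6% of its mean level. Most chemokine, adhesion and NF-κB feedback genes were not called, with TRAF1 of the NF-κB list and ITGAV and ITGB8 of the adhesion list as the exceptions, all lower. Over all tested genes only 2.61% were called, so such counts alone do not set these lists apart. Called were 0 of 27 chemokines and cytokines, 1 of 26 NF-κB genes and 2 of 21 adhesion genes. JUN was likewise the 1 of 17 AP-1 and ATF factors. On the counts alone, a broad set of mostly short transcripts was higher with CDD-3013, including those for ribosomal proteins and for respiratory chain subunits. That second pattern shrank when the measurement was corrected for transcript length and GC content. Most of its calls were lost without replicate 2 of either compound, and so were most calls of lower genes. JUN, HBEGF, DUSP8 and FILIP1L kept their calls whichever of the 4 libraries was left out. Each gene had 2 tests, on the counts and on the counts corrected for length and GC content, and a gene is called higher or lower below only where both tests gave an adjusted p under 0.05 in the same direction. The adjusted p is the Benjamini-Hochberg value of edgeR's quasi-likelihood test over 15740 genes, and levels are in CPM, reads of a gene relative to the TMM-adjusted library size. In bulk RNA, fewer cells of a type and less RNA per cell cannot be told apart. Only 1 pair of compounds was compared, so p-values were adjusted over genes and not over pairs.

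On the counts alone, 1550 genes (9.85%) were higher with CDD-3013 and 1261 (8.01%) were lower. After the correction, 521 (3.31%) were higher and 131 (0.832%) lower. Both tests called 305 genes higher (1.94%) and 106 lower (0.673%), and these shares are the background for every count of members below. Only 1 gene, DNAJC10, was called in opposite directions. The differences were small. Of the corrected calls, 5 were at least 2-fold higher and 11 at least 2-fold lower. The median absolute difference over all genes was 0.21 log2 units before and 0.14 after the correction. The 95% interval of the corrected difference lay within ±0.5 log2 units for 9079 genes (57.7%) and within ±1 for 12056 (76.6%), so for those genes a difference beyond these bounds was outside the interval. The counts of calls depended on single libraries. With CDD-2728 replicate 2 left out, both tests called 2 genes higher and 8 lower, and with CDD-3013 replicate 2 left out they called 8 and 19. Without CDD-2728 replicate 1 the counts were 780 and 234, and without CDD-3013 replicate 1 they were 511 and 85. Such fits assume that the lone library of a group varies as the other groups do. Scaled by library totals in place of TMM factors, 34.5% of the uncorrected calls were higher, against 55.1%.

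Of the 106 lower genes, 7 stayed called in both tests whichever of the 4 libraries was left out, among them JUN, HBEGF, DUSP8, FILIP1L, NFAT5 and SMG1. Of the 305 higher genes, 2 did so, SRSF9 and ZNHIT1. JUN lies on chromosome 1 (GRCh38, chr1:58780788-58784327, minus strand). Its level was 164.9 and 168.8 CPM with CDD-2728 and 126.9 and 129.2 CPM with CDD-3013. It stood at 132.6 and 146.0 CPM without IL1β, 308.1 and 324.7 CPM with IL1β alone, and 76.6 and 86.67 CPM at 10 µM CDD-2728. The CDD-3013 libraries were thus below both CDD-2728 libraries at 1 µM and above both at 10 µM. The difference between the compounds was -0.38 ± 0.07 log2 units (SE; adjusted p = 0.00166) on the counts and -0.47 ± 0.06 (adjusted p = 9.74e-05) after the correction.

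HBEGF (chr5:140332843-140346631, minus strand), which encodes a membrane-anchored growth factor that activates the EGF receptor, measured 48.82 and 50.59 CPM with CDD-2728 and 31.56 and 32.7 CPM with CDD-3013. IL1β alone gave 150.5 and 155.0 CPM, vehicle 48.23 and 54.6 CPM, and 10 µM CDD-2728 27.17 and 27.97 CPM. With CDD-3013 the gene was therefore under its level in cells that had no IL1β, while with 1 µM CDD-2728 it was about at that level. The difference was -0.63 ± 0.08 (adjusted p = 0.000406), and -0.73 ± 0.08 (adjusted p = 5.29e-06) after the correction. DUSP8 (chr11:1554044-1571920, minus strand) encodes a phosphatase that inactivates JNK and p38. It measured 15.9 and 19.34 CPM with CDD-2728 and 10.82 and 10.12 CPM with CDD-3013, against 59.36 and 59.66 CPM with IL1β alone, 23.35 and 20.91 CPM without IL1β and 4.27 and 5.499 CPM at 10 µM CDD-2728. The groups at 1 µM did not overlap, and the difference was -0.75 ± 0.13 (adjusted p = 0.00117) and, corrected, -0.86 ± 0.12 (adjusted p = 0.00024). This was the largest corrected difference of the 7 genes that stayed called.

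FILIP1L (chr3:99830141-100114513, minus strand) encodes a filamin-interacting protein and lies across the gene CMSS1 on the other strand, whose reads cannot be told apart where the counting did not use strand, which is not given in the sources used here. It measured 106.4 and 105.3 CPM with CDD-2728 and 71.49 and 69.58 CPM with CDD-3013. Its level was 253.7 and 272.7 CPM with IL1β, 74.4 and 73.51 CPM with vehicle, and 42.81 and 41.78 CPM at 10 µM CDD-2728. The difference was -0.59 ± 0.07 (adjusted p = 0.000122) and, corrected, -0.46 ± 0.06 (adjusted p = 9.86e-05).

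NFAT5, the transcription factor of the response to osmotic stress, and SMG1, a kinase of nonsense-mediated mRNA decay, showed another order of groups in uncorrected CPM. NFAT5 measured 105.8 and 118.5 CPM with 1 µM CDD-2728, 64.07 and 62.75 CPM with CDD-3013, and 96.67 and 76.75 CPM at 10 µM CDD-2728. SMG1 measured 184.7 and 213.8 CPM, 123.7 and 120.4 CPM, and 205.0 and 175.1 CPM in the same groups. Other genes overlap DUSP8, NFAT5, SMG1, SRSF9, ZNHIT1, TNC and IRF1 as well, with the same limit on strand. For NFAT5 and SMG1 the CDD-3013 libraries were the lowest of all 10 on this scale. Their transcripts are long, at 14219 and 16115 bases, and the correction moved their differences from -0.82 to -0.45 (adjusted p = 0.000962) and from -0.71 to -0.35 (adjusted p = 0.0019). Set beside IL1β alone, NFAT5 differed by -1.01 with CDD-3013 and -0.55 with 10 µM CDD-2728 on the counts, but by -0.51 ± 0.07 and -0.46 ± 0.07 after the correction. For SMG1 these values were -0.96 and -0.32 on the counts and -0.48 ± 0.06 and -0.23 ± 0.06 after it.

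**Figure D1:**
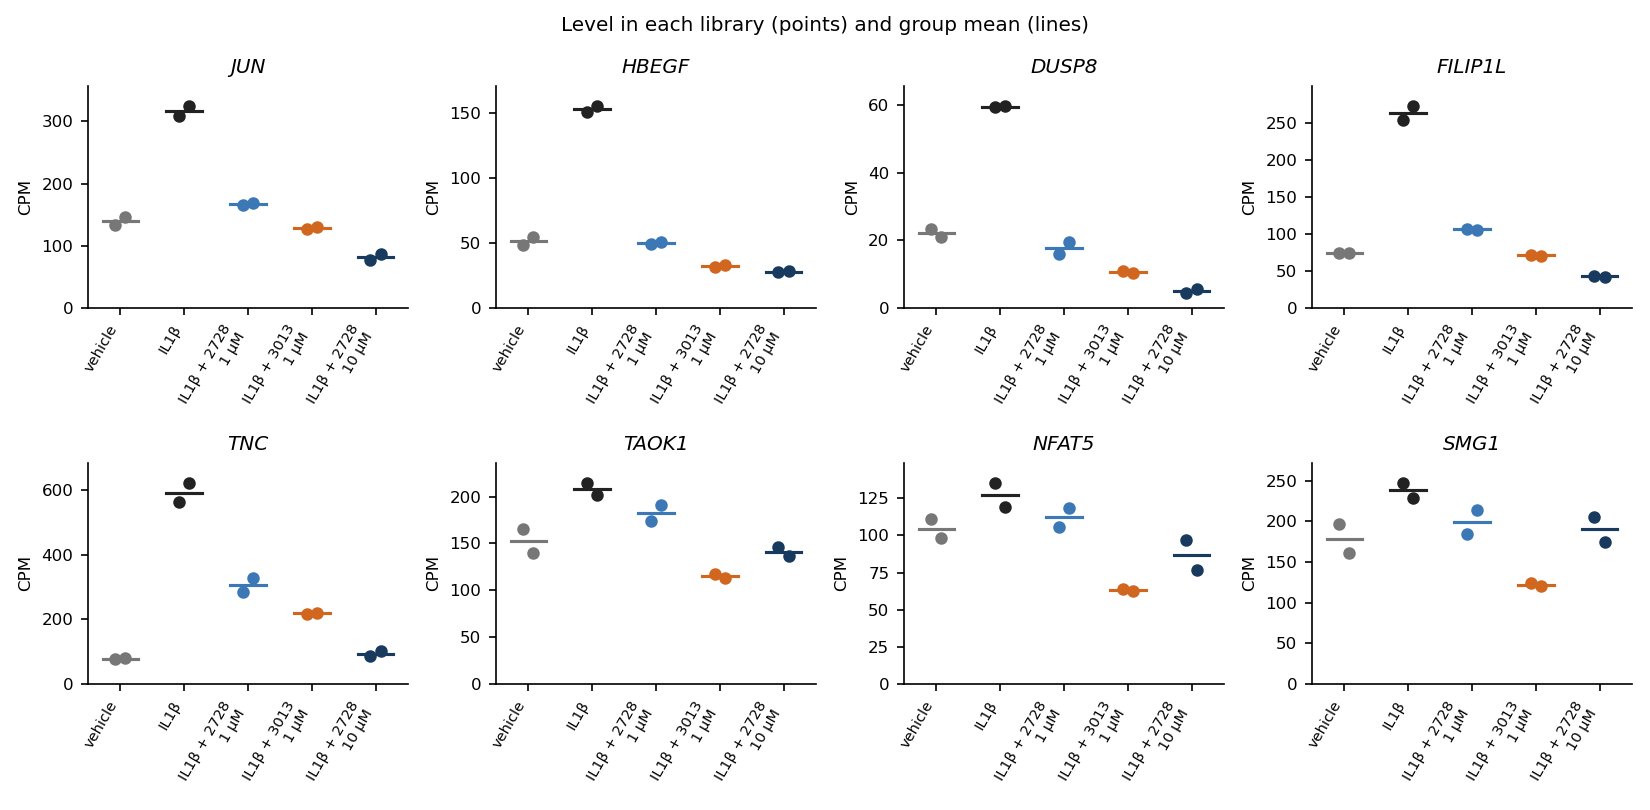
Level in CPM (vertical axis, from 0) of 8 genes that were lower with CDD-3013, in each of the 10 libraries by group; points are libraries and lines are group means. In JUN, HBEGF, DUSP8, FILIP1L and TNC the CDD-3013 libraries sit between those at 1 µM and those at 10 µM CDD-2728, while in TAOK1, NFAT5 and SMG1 they are the lowest of all libraries in these uncorrected values.

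The promoters of JUN and DUSP8 are shown because these genes stayed lower whichever library was left out and hold letters that AP-1 and ATF factors are known to bind. Both were picked after their values were seen. Each window runs from 250 bases before to 50 after the RefSeq start in GRCh38.p14, written 5′ to 3′ on the gene's strand, and capitals mark motif matches. The window of JUN is chr1:58783998-58784297 on the minus strand, and that of DUSP8 is chr11:1572222-1572521 on the minus strand.
JUN: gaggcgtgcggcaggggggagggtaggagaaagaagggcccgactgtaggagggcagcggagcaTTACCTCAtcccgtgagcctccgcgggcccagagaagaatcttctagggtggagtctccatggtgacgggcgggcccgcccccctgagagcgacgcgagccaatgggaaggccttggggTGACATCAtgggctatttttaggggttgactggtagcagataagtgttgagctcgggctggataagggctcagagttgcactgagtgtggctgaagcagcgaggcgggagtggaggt
DUSP8: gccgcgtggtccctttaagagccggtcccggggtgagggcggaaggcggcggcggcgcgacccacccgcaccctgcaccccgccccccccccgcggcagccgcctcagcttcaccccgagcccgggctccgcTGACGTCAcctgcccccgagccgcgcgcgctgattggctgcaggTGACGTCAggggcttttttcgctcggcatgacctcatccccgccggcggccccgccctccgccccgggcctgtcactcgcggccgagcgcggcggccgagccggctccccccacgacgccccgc
JUN holds 1 match to TGACATCA at position -67 from the start and 1 to TTACCTCA at -186, spellings of the proximal and distal elements that Jun and ATF proteins are known to bind there. DUSP8 holds 2 matches to the ATF and CREB site TGACGTCA, at -118 and -74. The RefSeq start of DUSP8 lies before the GENCODE span given above, so its window does not touch that span. On both strands, TGACATCA occurs in 2.61%, TTACCTCA in 0.715% and TGACGTCA in 1.85% of 35116 promoter windows of the same length, and in 1.41%, 0.535% and 3.31% of the 11220 windows of tested genes. The AP-1 site TGANTCA occurs in 7.71% of all windows and 4.79% of those of tested genes, the interferon element core GAAANNGAA in 8.11% and 6.43%, and the NF-κB site GGANTTTCC in 1.64% and 1.66%. None of these 6 spellings occurs in the windows of HBEGF, FILIP1L or SMG1, which says only that the letters are not in these 300 bases. The FILIP1L window lies inside the GENCODE span of the gene, far from the outer start of that span. Of the 2 higher genes that stayed called, ZNHIT1 holds 1 match to the AP-1 site TGANTCA, at -89, and SRSF9 holds none of the 6. Matches were thus not limited to lower genes. For NFAT5 no window was used here.

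For contrast, the windows of the 2 genes with the largest positive and the 2 with the largest negative uncorrected differences follow, among genes with a window that were called in both tests and named for their size. They are chr19:507247-507546 (plus strand, TPGS1), chr9:136658606-136658905 (plus strand, EGFL7), chr17:16689991-16690290 (plus strand, CCDC144A) and chr5:79991213-79991512 (minus strand, MTX3).
TPGS1: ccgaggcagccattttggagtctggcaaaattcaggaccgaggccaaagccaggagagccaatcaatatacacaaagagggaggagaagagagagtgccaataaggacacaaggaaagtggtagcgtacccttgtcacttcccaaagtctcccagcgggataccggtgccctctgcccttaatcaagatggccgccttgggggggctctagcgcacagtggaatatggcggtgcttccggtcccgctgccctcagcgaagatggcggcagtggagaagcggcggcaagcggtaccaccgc
EGFL7: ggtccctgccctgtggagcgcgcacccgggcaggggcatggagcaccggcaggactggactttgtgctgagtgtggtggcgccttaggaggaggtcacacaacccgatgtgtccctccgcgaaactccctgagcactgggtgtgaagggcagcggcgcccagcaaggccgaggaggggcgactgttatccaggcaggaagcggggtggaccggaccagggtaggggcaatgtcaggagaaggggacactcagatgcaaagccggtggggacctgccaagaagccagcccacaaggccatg
CCDC144A: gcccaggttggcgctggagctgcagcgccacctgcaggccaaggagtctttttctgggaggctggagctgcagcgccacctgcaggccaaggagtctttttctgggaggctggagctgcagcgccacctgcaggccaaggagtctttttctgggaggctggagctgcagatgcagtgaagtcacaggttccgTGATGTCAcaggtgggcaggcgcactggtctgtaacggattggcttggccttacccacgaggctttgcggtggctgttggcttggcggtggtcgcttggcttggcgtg
MTX3: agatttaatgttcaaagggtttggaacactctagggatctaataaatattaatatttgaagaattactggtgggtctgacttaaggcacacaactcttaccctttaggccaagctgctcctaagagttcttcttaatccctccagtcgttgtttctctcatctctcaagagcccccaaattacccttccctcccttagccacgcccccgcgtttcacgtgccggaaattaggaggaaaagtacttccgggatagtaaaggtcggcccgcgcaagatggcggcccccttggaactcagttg
The window of CCDC144A has 1 match to TGACATCA, at -58 on the other strand, and the other 3 windows have no match to any of the 6 spellings. CCDC144A belongs to a family of near-identical copies, so its counts are uncertain. Its level was 10.6 and 14.33 CPM with CDD-2728 and 6.597 and 6.642 CPM with CDD-3013, and its corrected difference was -0.57 ± 0.16 (adjusted p = 0.0409).

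The genes that the higher dose of CDD-2728 lowered were followed next. The comparison of 10 µM CDD-2728 with IL1β alone shares no library with that of the compounds at 1 µM. It lowered 250 genes at least 2-fold (1.59% of tested genes) and raised 588 (3.74%), in both tests. Of the 250 lowered genes, 18 (7.2%) were lower with CDD-3013 and 0 were higher, against 0.673% and 1.94% of all genes. These 18 made up 17% of the 106 lower genes. The median difference over the 250 was -0.15 on the counts and -0.17 after the correction, beside 0 and 0.02 over all genes. Beside JUN, HBEGF, DUSP8 and FILIP1L, genes among the 18 were TNC, TRAF1, TMEM217, DPP4, SLC22A3, ITGB8, CDK6, PALLD, TUFT1, MYBL1, ADAMTS16 and the unnamed gene ENSG00000273760. A lower level with CDD-3013 than with 1 µM CDD-2728 was a condition for these 18. So was a level at 10 µM at least 2-fold under IL1β alone. The second condition favours a CDD-3013 level above that at 10 µM, so the order of the groups is only described. In 17 of the 18 the mean uncorrected CDD-3013 level was above the mean at 10 µM CDD-2728. The gap was small for PALLD, at 131.5 against 131.1 CPM, and for MYBL1, at 43.51 against 43.05 CPM. The exception was CDK6, a kinase of cell cycle entry, with 61.31 CPM against 62.7 CPM at 10 µM. After the correction CDK6 stood at -0.94 from IL1β alone with CDD-3013 and at -1.27 with 10 µM CDD-2728, so it was no longer the lower of the 2. The count of 18 became 5 without CDD-2728 replicate 2 and 9 without CDD-3013 replicate 2.

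**Figure D2:**
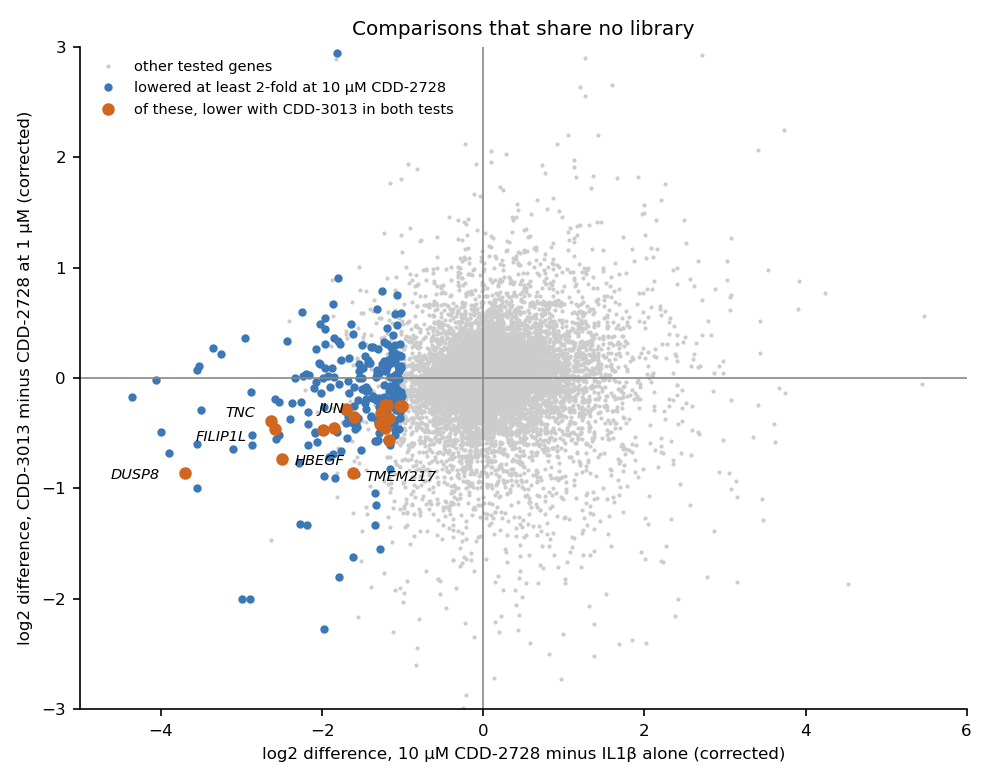
Corrected log2 difference between CDD-3013 and CDD-2728 at 1 µM (vertical axis) against that between 10 µM CDD-2728 and IL1β alone (horizontal axis), 1 point per gene; 17 genes lie outside the axes. The 18 orange genes are those of the 250 lowered at 10 µM (blue) that were also lower with CDD-3013 in both tests. The other blue genes lie on both sides of 0 on the vertical axis. Of all 250, 163 (65.2%) were below 0, against 46% of all tested genes.

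IL1β itself raised 662 genes at least 2-fold over vehicle (4.21%) and lowered 475 (3.02%), in a comparison that also shares no library with that of the compounds. Of the raised genes, 14 were lower with CDD-3013 (2.11%) and 6 higher (0.906%), and the median difference was -0.04 and, corrected, -0.01. Split by what 10 µM CDD-2728 did to them, the 84 genes raised by IL1β and lowered at 10 µM held 10 of the 14 lower genes and 0 higher ones, with a median corrected difference of -0.2. The 60 genes raised by IL1β and raised further at 10 µM held 4 higher genes and 0 lower, with a median of 0.1. The other 518 held 4 lower and 2 higher, with a median of -0.01. The IL1β libraries enter both comparisons that define these 3 sets, and the difference between the sets was not tested.

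In the first set, TNC encodes tenascin-C, a matrix protein of remodelling tissue. It measured 285.2 and 327.0 CPM with CDD-2728 and 218.3 and 219.8 CPM with CDD-3013, between 562.2 and 623.3 CPM with IL1β and 77.49 and 79.29 CPM without it. Its corrected difference was -0.39 ± 0.07 (adjusted p = 0.00757) and was lost only without CDD-2728 replicate 2. TRAF1, an adaptor of TNF receptors that NF-κB drives, measured 21.87 and 19.89 CPM against 13.61 and 16.32 CPM (corrected -0.45 ± 0.13, adjusted p = 0.0448). TRAF1 lost its call in 1 of the tests or both with any 1 of the 4 libraries left out. TMEM217, a low-level transcript, went from 4.904 and 4.386 CPM to 3.209 and 2.404 CPM (corrected -0.86 ± 0.24, adjusted p = 0.0417). DPP4, a cell-surface peptidase, and SLC22A3, an organic cation transporter, differed by -0.24 ± 0.06 and -0.35 ± 0.06 (adjusted p = 0.0213 and 0.00392).

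The 6 IL1β-raised genes that were higher with CDD-3013 were SAA1, SOCS3, IRF1, IER5, CCDC71L and BID. SAA1, an acute-phase protein whose transcript is close in sequence to SAA2, measured 174.9 and 125.3 CPM with CDD-2728 and 229.1 and 225.6 CPM with CDD-3013. IL1β alone gave 60.82 and 56.52 CPM, and 10 µM CDD-2728 157.0 and 157.1 CPM. SAA1 was thus higher with either compound than with IL1β alone, and highest with CDD-3013, at +0.48 ± 0.1 over CDD-2728 after the correction (adjusted p = 0.0262). SAA2 measured 75.65 and 74.01 CPM against 80.65 and 86.21 CPM, with a corrected difference of 0.02 ± 0.08 and an interval from -0.14 to 0.18. SOCS3, the feedback inhibitor of STAT3 signalling, measured 213.4 and 203.2 CPM with CDD-2728, 282.6 and 285.5 CPM with CDD-3013 and 482.4 and 522.0 CPM at 10 µM CDD-2728. Its corrected difference was 0.27 ± 0.06 (adjusted p = 0.00761). IRF1, a transcription factor of interferon-stimulated genes, measured 38.28 and 42.93 CPM against 50.28 and 49.97 CPM (corrected 0.33 ± 0.08, adjusted p = 0.0209), and lost its call with any 1 of the 4 libraries left out. IER5, an immediate-early gene, CCDC71L and BID, a pro-apoptotic member of the BCL2 family, differed by 0.32 ± 0.06, 0.43 ± 0.07 and 0.32 ± 0.07 after the correction (adjusted p = 0.00472, 0.0019 and 0.0155). Without replicate 2 of either compound, SAA1, SOCS3, IER5, CCDC71L and BID lost their calls too. SAA1 also lost its call without CDD-3013 replicate 1.

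The inflammatory genes for which IL1β is best known did not pass either test. IL6 measured 101.0 and 113.4 CPM with CDD-2728 and 95.21 and 98.8 CPM with CDD-3013, with a corrected interval from -0.44 to -0.07 (adjusted p = 0.119). CXCL8, the neutrophil chemokine, measured 712.2 and 647.2 CPM against 491.4 and 655.9 CPM, so the groups overlapped, and its corrected interval ran from -0.38 to 0.02. CCL2, the monocyte chemokine, measured 437.8 and 384.1 CPM against 427.4 and 488.4 CPM, with an interval from -0.06 to 0.18. For CXCL10, a chemokine induced through interferon signalling, the interval was wider, from -0.23 to 0.42. PTGS2, the inducible cyclooxygenase of prostaglandin synthesis, measured 72.44 and 82.59 CPM against 64.6 and 68.69 CPM, and its corrected difference was 0 with an interval from -0.2 to 0.2. Of 27 tested chemokines and cytokines, 0 were called in both tests. Only CXCL6 passed the corrected test, at -0.24 ± 0.06 (adjusted p = 0.0167), after -0.2 and adjusted p = 0.0567 on the counts.

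NF-κB targets and adhesion genes had narrow intervals. ICAM1, an adhesion molecule for leukocytes, measured 557.3 and 559.0 CPM against 576.9 and 614.8 CPM, with a corrected interval from -0.12 to 0.09. For NFKBIA and TNFAIP3, the feedback inhibitors of NF-κB, the intervals ran from -0.18 to 0.05 and from -0.19 to 0.03. SOD2, the mitochondrial superoxide dismutase, measured 5188 and 5075 CPM against 4534 and 4692 CPM, with an interval from -0.26 to -0.04 and adjusted p = 0.0999; it had no length or GC value and was fitted without that correction. VCAM1 had an interval from 0.02 to 0.28 (adjusted p = 0.182). Of 26 genes of the NF-κB pathway and its feedback, TRAF1 alone was called in both tests, as lower. On the counts alone 8 were higher, NFKB2 among them, and 4 lower. Of 44 interferon-stimulated genes, IRF1 alone was called in both tests, as higher. IFIT2, TNFSF10 and C2CD4A were not called, with corrected differences of 0.07 ± 0.13, 0.19 ± 0.12 and 0.11 ± 0.12. TDO2, a tryptophan-degrading enzyme, measured 13.59 and 10.93 CPM against 15.63 and 16.76 CPM, and passed only the corrected test (0.58 ± 0.15, adjusted p = 0.0262). The collagenase MMP1 and the stromelysin MMP3 differed by 0.11 ± 0.12 and -0.29 ± 0.33 and were not called.

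**Figure D3:**
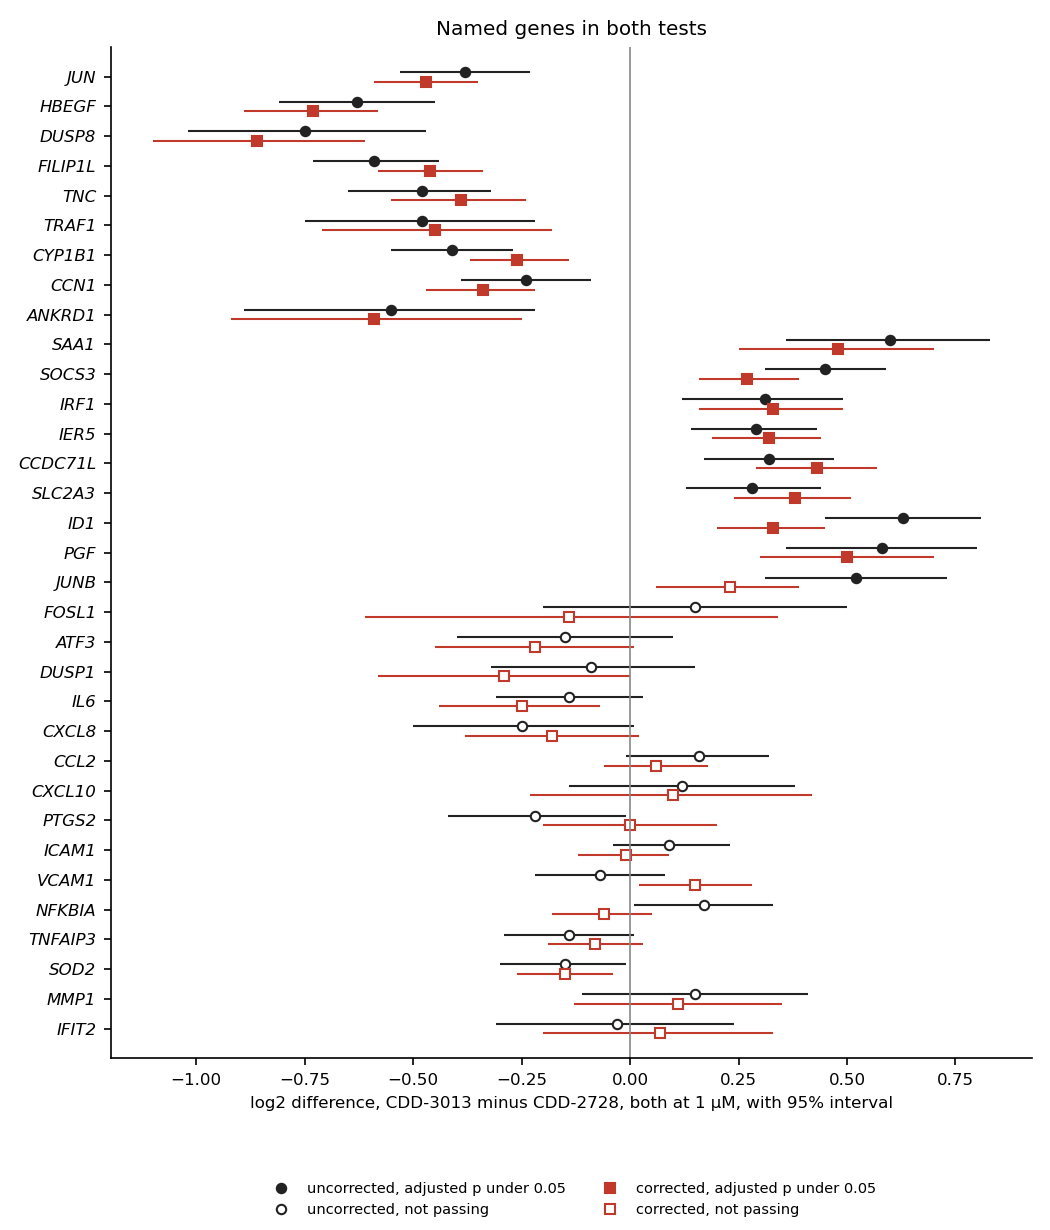
Log2 difference between CDD-3013 and CDD-2728 at 1 µM (horizontal axis) with its 95% interval for named genes, on the counts (black circles) and corrected for length and GC content (red squares); filled symbols passed an adjusted p of 0.05. JUN, HBEGF, DUSP8 and FILIP1L lie below 0 in both tests, while IL6, CXCL8, CCL2, ICAM1 and NFKBIA were not called in either.

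Within the JNK pathway itself, the genes of the JNKs and of their kinases MAP2K4 and MAP2K7 were not called in both tests. MAPK8, the gene of JNK1, measured 33.65 and 32.49 CPM with CDD-2728 and 27.16 and 25.81 CPM with CDD-3013, but its difference of -0.32 (adjusted p = 0.0232) became -0.05 with an interval from -0.25 to 0.14 after the correction. For MAPK9, the gene of JNK2, the corrected interval was -0.12 to 0.18, for the JNK kinase gene MAP2K4 -0.1 to 0.22 and for MAP2K7 -0.09 to 0.19. MAPK10, near 1 CPM in each library, had an interval from -0.61 to 1.12 and could not be resolved. Of the 25 JNK and MAPK pathway genes, 2 were higher in both tests, MAP2K2, an ERK-activating kinase, and MAP3K11, an upstream JNK kinase (corrected 0.2 ± 0.06 and 0.22 ± 0.06). The list also held 1 lower gene, and over all genes 1.94% were higher and 0.673% lower. TAOK1, another upstream kinase of the stress pathways, was lower, at 173.6 and 190.8 CPM against 117.0 and 113.0 CPM (corrected -0.3 ± 0.05, adjusted p = 0.00431). Beside IL1β alone its corrected values were -0.37 ± 0.05 with CDD-3013 and -0.46 ± 0.05 at 10 µM CDD-2728, the reverse of the order on the counts (-0.86 and -0.56).

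Of 17 tested AP-1 and ATF factors, JUN alone was called in both tests. JUNB was higher only on the counts (0.52 ± 0.1, adjusted p = 0.00286; corrected 0.23 ± 0.08, adjusted p = 0.115). JUND turned from 0.13 on the counts to -0.19 ± 0.05 after the correction (adjusted p = 0.044), so its direction depended on the correction. FOS, FOSL1 and ATF3 were not called, with corrected differences of 0.31 ± 0.23, -0.14 ± 0.2 and -0.22 ± 0.11. CREB5 measured 2.368 and 4.324 CPM with CDD-2728 and 1.961 and 1.771 CPM with CDD-3013, with adjusted p = 0.0519 on the counts and 0.346 after the correction. Of 20 MAPK phosphatases and Sprouty-type feedback genes, DUSP8 alone was called. DUSP1 and DUSP4, which act on several MAPKs, had corrected differences of -0.29 ± 0.13 and 0.03 ± 0.09. EGR1, an immediate-early factor, was near 1 CPM and had an interval from -1.76 to -0.1 (adjusted p = 0.191). The growth factors PDGFB and FGF5 and the scaffold gene NEDD9, all at lower mean levels with 10 µM CDD-2728 than with IL1β alone, differed by -0.22 ± 0.11, 0.33 ± 0.24 and -0.3 ± 0.26 and were not called. Of 22 tested growth factors and EGF receptor ligands, HBEGF was lower and PGF, a vascular growth factor, was higher, at 31.34 and 27.61 CPM against 44.1 and 44.02 CPM (corrected 0.5 ± 0.1, adjusted p = 0.00598).

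Adhesion, matrix and YAP target genes were lower in small numbers. Of 21 adhesion molecules and integrins, ITGAV and ITGB8, which pair to bind and activate TGF-β, were lower in both tests and 0 were higher. ITGB8 measured 92.05 and 103.2 CPM against 66.03 and 63.95 CPM (corrected -0.25 ± 0.06, adjusted p = 0.0213), and ITGAV differed by -0.26 ± 0.06. Of 28 matrix genes, TNC and FBN2, a fibrillin, were lower and 0 higher. Of 21 YAP and TEAD targets, CCN1 and ANKRD1 were lower and 0 higher, with corrected differences of -0.34 ± 0.06 and -0.59 ± 0.16 (adjusted p = 0.00432 and 0.0389). ANKRD1 lost its call with any 1 of the 4 libraries left out, and its adjusted p was 0.0555 with DESeq2 and 0.0531 with only the 4 libraries. For CCN1 the adjusted p was 0.0676 with only the 4 libraries. CCN1, ITGB8 and FBN2 lost their calls without either CDD-3013 library and without CDD-2728 replicate 2. CYP1B1, an aryl hydrocarbon receptor target, measured 537.7 and 592.6 CPM with CDD-2728 and 409.9 and 439.7 CPM with CDD-3013, against 104.2 CPM in vehicle and 484.3 CPM in IL1β on average (corrected -0.26 ± 0.06, adjusted p = 0.011). NOTCH2, a Notch receptor, and IRS2, an adaptor of the insulin receptor, were also lower (-0.23 ± 0.05 and -0.19 ± 0.05), and IRS2 lost its call with any 1 library left out. PLAUR, the urokinase receptor, and IER3, an immediate-early gene, were lower only after the correction (-0.33 ± 0.07 and -0.23 ± 0.06).

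The higher genes were led by growth and metabolism lists. All 58 ribosomal protein genes had a positive corrected difference, with a median of 0.34 (0.46 on the counts), and 14 were called higher in both tests and 0 lower. RPLP1 measured 1128 and 857.3 CPM with CDD-2728 and 1368 and 1738 CPM with CDD-3013 (corrected 0.56 ± 0.12, adjusted p = 0.0427), and RPS3 measured 1009 and 824.3 CPM against 1160 and 1437 CPM (corrected 0.45 ± 0.08, adjusted p = 0.00786). Ribosomal protein genes have many near-identical pseudogenes, so their counts are uncertain. These transcripts took 3.94% and 4.67% of counts in the CDD-3013 libraries, 3.64% and 2.95% in those with 1 µM CDD-2728, and 2.76% to 3.43% in the other 6. All 33 nuclear genes of oxidative phosphorylation were likewise positive, with a median of 0.33 (0.45 on the counts), and 6 were called higher. The correction used the longest annotated transcript of each gene, with a median of 1917 bases for the ribosomal list and 1179 bases for oxidative phosphorylation. Whether the cells expressed shorter forms was not tested, so part of the length trend may remain in both medians. NDUFS6, a complex I subunit, measured 91.21 and 80.18 CPM against 120.0 and 144.2 CPM (corrected 0.35 ± 0.07, adjusted p = 0.00432). Of 30 glycolysis and hypoxia genes, 4 were higher and 0 lower. They were SLC2A3, a glucose transporter (0.38 ± 0.07), SLC16A3, a lactate exporter (0.31 ± 0.06), PFKL, a phosphofructokinase (0.29 ± 0.06), and NDRG1 (0.27 ± 0.07). Without CDD-2728 replicate 2 these 3 counts became 0, 0 and 0, and without CDD-3013 replicate 2 they became 1, 0 and 0. Without CDD-2728 replicate 1 they were 41, 21 and 10, and without CDD-3013 replicate 1 they were 38, 19 and 2.

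Other lists held 1 to 3 called genes, and those named in this paragraph lost their calls without replicate 2 of either compound. Of 27 genes of the integrated stress and unfolded protein responses, XBP1, PHGDH and SLC3A2 were higher and 0 lower (corrected 0.22 ± 0.05, 0.21 ± 0.06 and 0.18 ± 0.05). The adjusted p of XBP1 was 0.0534 with DESeq2 and 0.139 with only the 4 libraries compared. Of 20 NRF2 targets, TKT and NQO1 were higher (0.39 ± 0.07 and 0.29 ± 0.07). With only the 4 libraries the adjusted p of NQO1 was 0.0738. Of 26 apoptosis regulators, BAD and BID, both pro-apoptotic, were higher. PSMB9, an immunoproteasome subunit, was the 1 of 15 genes of antigen processing called, at 52.37 and 38.61 CPM against 61.39 and 73.37 CPM (corrected 0.54 ± 0.12, adjusted p = 0.0283). MCM5, a DNA helicase subunit, was the 1 of 25 genes of DNA replication, and MVK, a kinase of cholesterol synthesis, the 1 of 30 lipid synthesis genes. ID1, a BMP target, measured 190.8 and 155.2 CPM with CDD-2728 and 248.5 and 288.2 CPM with CDD-3013, against 92.71 CPM with IL1β and 311.6 CPM at 10 µM CDD-2728 on average (corrected 0.33 ± 0.06, adjusted p = 0.00472). In the G2/M cell cycle, p53 target, heat shock, WNT, circadian and prostaglandin lists, 0 genes were called in both tests.

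**Figure D4:**
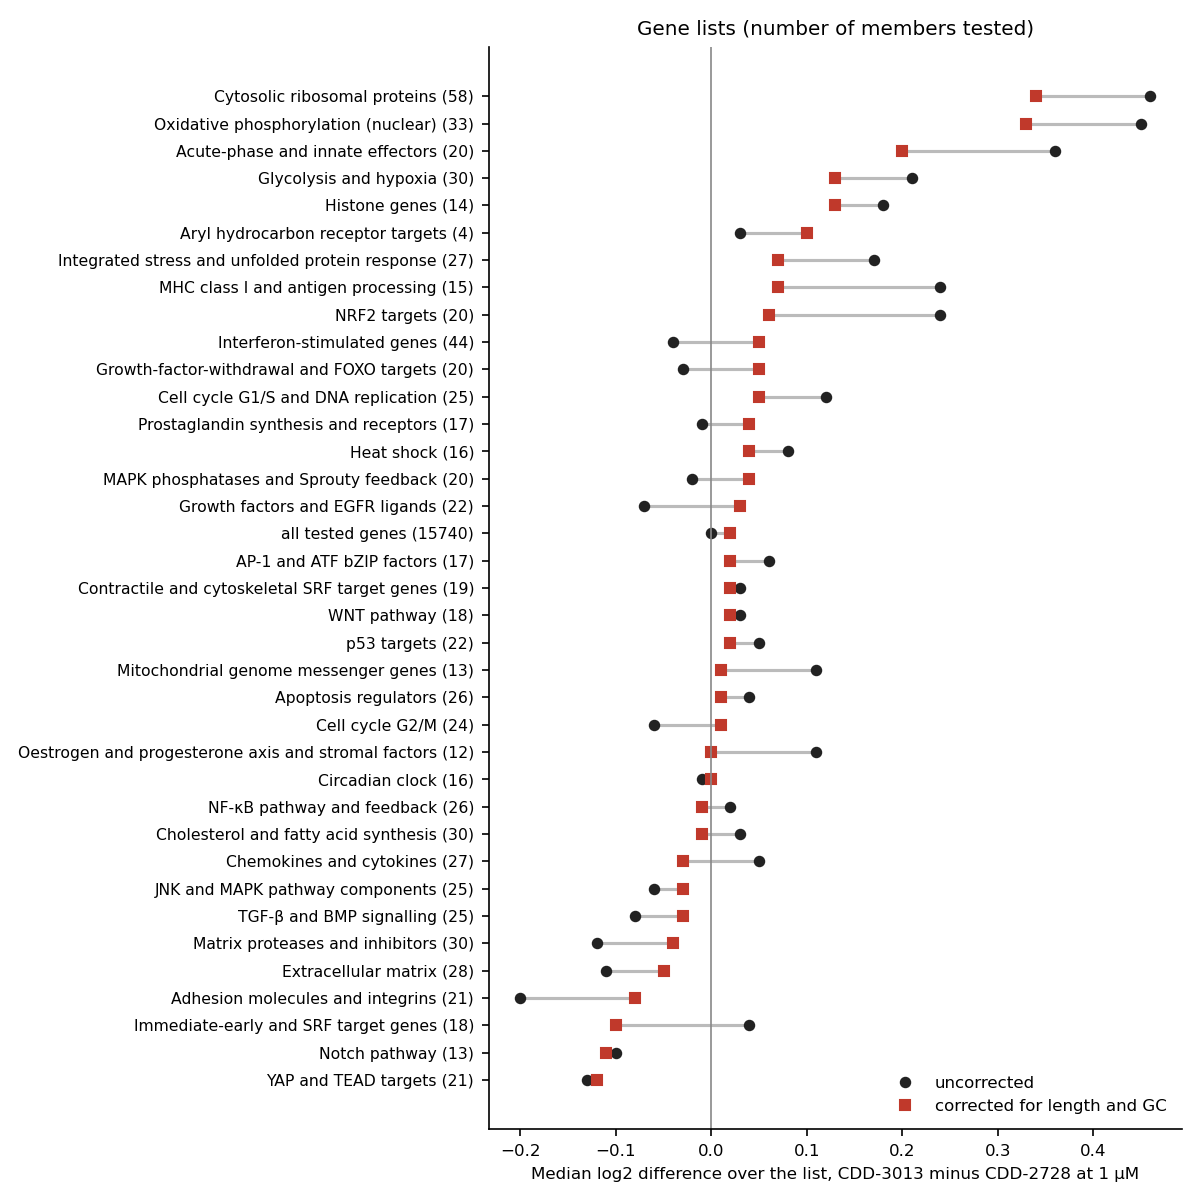
Median log2 difference between CDD-3013 and CDD-2728 at 1 µM (horizontal axis) over the tested members of each gene list, on the counts (black circles) and corrected for length and GC content (red squares), with the number of members in brackets. Ribosomal proteins and oxidative phosphorylation stand at 0.34 and 0.33 after the correction, and the YAP and TEAD list at -0.12 is the lowest.

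The genes with the largest differences included several at low levels, while others, such as RPLP1, ID1 and SMG1, were well expressed. CDC42EP5, an effector of the GTPase CDC42, measured 5.524 and 3.398 CPM with CDD-2728 and 9.984 and 9.298 CPM with CDD-3013 (corrected 0.75 ± 0.2, adjusted p = 0.0259). TPGS1, a subunit of a tubulin-modifying complex, measured 16.52 and 12.85 CPM against 25.32 and 28.91 CPM (corrected 0.7 ± 0.15, adjusted p = 0.0141). The noncoding CRIM1-DT, at 2.086 and 2.78 CPM against 3.506 and 5.883 CPM, had the widest error of these (corrected 1 ± 0.27). SRSF9, a splicing factor, and ZNHIT1, a subunit of a chromatin remodeller, kept their calls without each library. SRSF9 measured 204.3 and 186.4 CPM against 240.5 and 283.1 CPM, and ZNHIT1 98.14 and 82.34 CPM against 124.4 and 139.9 CPM (corrected 0.37 ± 0.05 and 0.54 ± 0.09, adjusted p = 0.000529 and 0.00472). EGFL7, an endothelial secreted factor, DNPH1, MCRIP2, DPCD, AVPI1, MRPL54, ANKRD39, RARRES2 and LINC02593 were higher by 0.35 to 0.63 after the correction. At the other end, ZNF892, MTX3, LNPEP, LINC00342, MINDY2 and PHIP were lower, with corrected differences from -0.87 to -0.26.

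Transcript length and GC content moved with the comparison of the compounds. With genes split by rank into 5 bins, from the bin with the lowest GC content to that with the highest the median uncorrected difference went from -0.19 to 0.21, and from the shortest to the longest transcripts it went from 0.21 to -0.19. After the correction the medians lay between 0.01 and 0.04. The genes called higher on the counts had a median length of 2139.5 bases and a GC content of 58.5%, and those called lower 6796 bases and 40.5%, beside 3352 bases and 48.5% over all genes. The trend was in both CDD-3013 libraries, where the gap between the highest and lowest GC bins, relative to the mean of the 10 libraries, was 0.31 and 0.27. It was -0.08 and -0.13 with 1 µM CDD-2728 and between -0.14 and 0.09 in the other 6. The gap between the bins of the shortest and longest transcripts was 0.31 and 0.44 with CDD-3013 but 0.1 and -0.14 in CDD-2728 replicates 1 and 2. Compound and trend cannot be told apart in 2 libraries each, and the correction also removes any change that the compound itself makes along length or GC content.

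**Figure D5:**
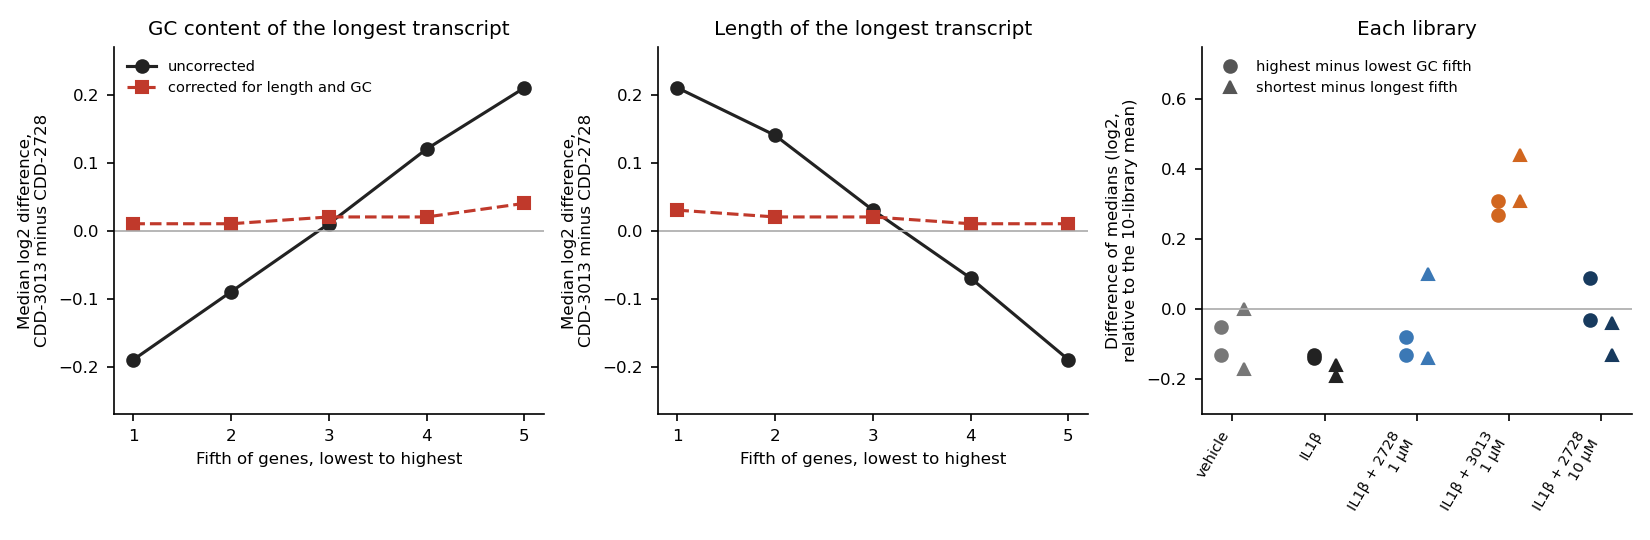
Median log2 difference between CDD-3013 and CDD-2728 at 1 µM in 5 bins of GC content and of transcript length (left and middle), and, for each of the 10 libraries, the gap between the outer bins relative to the mean library (right). The uncorrected medians run from -0.19 to 0.21 along GC content, and both CDD-3013 libraries lie above all others in the right panel.

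Markers of the labelled cell type and of others moved as follows. Summed over 12 epithelial markers, of which 5 averaged under 1 CPM, the level was 8914 to 10660 CPM with CDD-2728 and 12270 to 13470 CPM with CDD-3013, most of it the keratin KRT8. KRT8 was the 1 of 9 tested epithelial markers called in both tests (corrected 0.29 ± 0.07, adjusted p = 0.0369); 5 of the 9 were positive and 4 negative after the correction, with a median of 0.07 (0.32 on the counts). The 12 endometrial stromal markers, all above 1 CPM and led by COL1A1, summed to 7710 to 8211 CPM against 7601 to 8083 CPM. Of these, HAND2 and THY1 were higher in both tests (corrected 0.34 ± 0.08 and 0.22 ± 0.06), and 10 of the 12 were positive after the correction, with a median of 0.13 (0.01 on the counts). Epithelial and stromal markers were thus both present in these cells. Mesothelial markers summed to 1176 to 1186 CPM against 1233 to 1259 CPM, endothelial ones to 38.24 to 39.06 CPM against 40.57 to 42.45 CPM, and 14 of 15 immune markers were under 1 CPM. The part of these markers in the differences above was not tested.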

How the data were processed

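Poly(A)-enriched RNA was sequenced in 10 libraries of 12Z cells. The submitters' processing notes name the tools fastp, STAR and featureCounts and the build hg38. Whether counting used strand is not given in the sources used here. Raw read counts per gene were deposited, 16517549 to 18453896 in the 4 libraries compared. Counts were filtered with filterByExpr (minimum count 10; 15740 genes kept), scaled by TMM and fitted in edgeR 4.0.16 (R 4.3.3) with the quasi-likelihood test over all 10 libraries. The corrected test added, per library, loess offsets (span 0.3, 2 rounds) for the length and GC content of the longest GENCODE 29 transcript, known for 15317 genes (97.3%). SEs are Wald values not below counting error. Coordinates are from GENCODE 29 and promoter windows from RefSeq, both of GRCh38. The fits were run on simulated counts with no trend or with a GC trend in the CDD-3013 libraries. No length trend was simulated, and the outcome is not reported here.

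Named genes were the 15 with the largest uncorrected difference in each direction among those called in both tests, at 2 CPM or more, without overlap between the groups and without clones, antisense genes or pseudogenes; in each list, at most 4 members, by smallest p; and a listed set of 40. The other genes named, such as those that stayed called without each library, were chosen after their values were seen. The genes and the 41 lists were chosen with earlier results of these data known. Alternatives were RLE and library-total scaling, other filters, DESeq2 1.42.0, only the 4 libraries, a replicate block, and leaving out each library. Leaving out libraries in both tests at once was added after seeing the data. Some genes that the naming rule or the lists include are not reported here.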

Additional observations from a re-analysis of the deposited data

How the results depend on the processing

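The uncorrected counts of 1550 higher and 1261 lower genes stayed within 1.5 times under RLE scaling, without the filter on low counts, under a stricter one and with DESeq2. Library totals gave 1965 lower genes. With only the 4 libraries compared, 945 genes were higher. The correction gave 521 and 131, length alone 1309 and 539, and GC content alone 587 and 442, against the uncorrected 1550 and 1261. Leaving out 1 library gave 318 to 1882 higher and 338 to 1425 lower genes and, with the correction, 7 to 1122 and 8 to 291. CDD-2728 replicate 2 gave the lowest of these and CDD-2728 replicate 1 the highest; the cause was not tested.

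Libraries share only a replicate number. The replicate 1 minus replicate 2 differences of the 2 groups had a correlation of -0.07 across genes. A replicate block gave 1420 and 1174 calls, and a replicate block with the correction 414 and 101.

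JUND (-0.19) and IER3 (-0.23) reversed with the correction, JUND also with the block added (-0.19) and IER3 also without CDD-2728 replicate 1 (-0.29). VCAM1 reversed to 0.23 without CDD-3013 replicate 1, and MAPK8 to 0.01 without CDD-2728 replicate 1, both with the correction. At 10 to 100 CPM the median half-width of the corrected 95% interval was 0.18 log2 units, and below 1 CPM it was 1.32.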
